A study of Mus musculus with 8 samples.

Results

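The genes described here are immediate-early genes and genes of the stress response that follows tissue dissociation, measured in macrophages sorted from mouse pancreatic islets. A list of 38 gene symbols was used, and a row was taken where the symbol column of the deposited count table equalled a listed symbol. This found 37 of 38 members among the 48440 genes of the table. The remaining gene, Cebpd, had a blank symbol and was identified by its Ensembl ID through the GENCODE M21 annotation. Its values are given separately, and it is in none of the counts of members. RNA sequencing was done on cells positive for CD11b and F4/80, sorted from the islets of male wild-type C57BL/6J mice 16 weeks of age. The HFD group received a high-fat diet with 45% fat, 20% protein and 35% carbohydrate at 19.67 kJ/g for 8 weeks, from 8 weeks of age. The chow group received standard chow with 8% fat, 21% protein and 71% carbohydrate at 10.88 kJ/g over the same ages. Each diet had 4 libraries, HFD replicates 5 to 8 and chow replicates 1 to 4, and each library pooled the cells of 2 mice, so single mice cannot be told apart within a library.

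Immediate-early genes are transcribed within minutes of a signal without new protein synthesis, through factors such as SRF, CREB and NF-kB that are already present in the cell. Their products are largely transcription factors (Fos, Jun, Egr and Nr4a families) and brakes on the same pathways, such as the MAP kinase phosphatases and the mRNA decay factor Zfp36. Enzymatic digestion and sorting of tissues are known to induce many of them, together with heat shock genes, so that their transcripts can be raised by the preparation of the cells as well as by the state of the animal.

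Library totals ranged from 4288661 to 6391245 counts, and the 2 mitochondrial ribosomal RNAs took 19.6% to 23.7% of the counts. Levels are given as CPM (counts scaled by edgeR to a common library size with TMM factors). Where a library had no count of a gene, the limit that 3 counts set was 0.468 to 0.708 CPM, depending on the library, and it covers counting error only. Macrophage markers were abundant, with the 12 listed summing to 5814 to 6975 CPM in HFD libraries and 5935 to 7759 CPM in chow libraries. Markers of other cells were uneven. The 10 acinar genes summed to 93.0, 44.5, 1558 and 36.6 CPM in HFD replicates 5 to 8, against 0.225, 2.19, 1447 and 3200 CPM in chow replicates 1 to 4. The 10 stellate and fibroblast genes summed to 424, 285, 233 and 106 CPM in HFD libraries, against 24.0, 80.7, 133 and 88.7 CPM in chow libraries. The pericyte gene Rgs5 made up most of this sum in HFD replicate 8 and chow replicates 2 to 4, and the other 9 genes, collagen genes among them, summed to 393, 234, 208 and 8.64 CPM in HFD libraries, against 24.0, 1.87, 4.56 and 3.30 CPM in chow libraries. The 10 islet endocrine genes summed to 974, 1514, 938 and 1818 CPM in HFD libraries, against 459, 1749, 1056 and 1056 CPM in chow libraries. Of the 8 neutrophil genes, 6 were at 0 in every library, S100a8 and S100a9 among them, and the sum of the list, 35.9 to 123 CPM in HFD libraries and 30.6 to 93.0 CPM in chow libraries, was mostly Csf3r. Of the 8 T and NK cell genes, Cd3e, Cd3g and Ncr1 were at 0 in every library, and the list summed to 9.84 to 43.0 CPM in HFD and 10.8 to 48.3 CPM in chow. The 8 endothelial genes summed to 1.00 to 13.7 CPM in HFD and 0 to 7.65 CPM in chow, with Cldn5 and Emcn at 0 throughout. The 6 B cell genes summed to 208 to 300 CPM in HFD and 250 to 446 CPM in chow, with Cd79a and Pax5 among those at 0 throughout. The 8 dendritic cell genes summed to 31.3 to 120 CPM in HFD and 68.4 to 167 CPM in chow, with Ccr7 at 0 throughout. The part of these cells in the results below was not tested, except where a fit with the stellate and fibroblast sum (Rgs5 included) as a covariate is given. Every HFD library except replicate 8 had a higher such sum than every chow library. With 8 libraries, such a fit therefore cannot cleanly separate diet from this sum. In such bulk samples, fewer cells of a type and less RNA per cell cannot be told apart.

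The members covered the whole range of expression levels, and Fos, Fosb, Junb, Egr2, Nr4a1 and Ier2 were in its lower part. On the scale of mean CPM per kilobase of exon over the 8 libraries, 17 members were above the median of all 10129 tested genes (5.38 CPM per kilobase) and 20 were below it. At the top stood Klf6, a zinc finger factor, at 131 CPM per kilobase, the 98.7th percentile of tested genes. It was followed by the constitutive and heat-inducible chaperone gene Hsp90aa1 at 76.8, the mRNA decay factor Zfp36l1 at 71.5 and its relative Zfp36 at 52.1 CPM per kilobase. Fos was at 1.47 CPM per kilobase, the 12.9th percentile, and Junb at 1.21, the 8.99th percentile. Fosb was at 0.270, Egr2 at 0.764, Nr4a1 at 0.5004 and Ier2 at 2.14 CPM per kilobase, and Egr3 had no count in any library. Only Jun, at 19.5 CPM per kilobase, and Atf3, at 12.4, were above the median among the 8 AP-1 and other bZIP members. The values therefore set Jun apart from its partner Fos, with which it forms the AP-1 dimer.

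**Figure D1:**
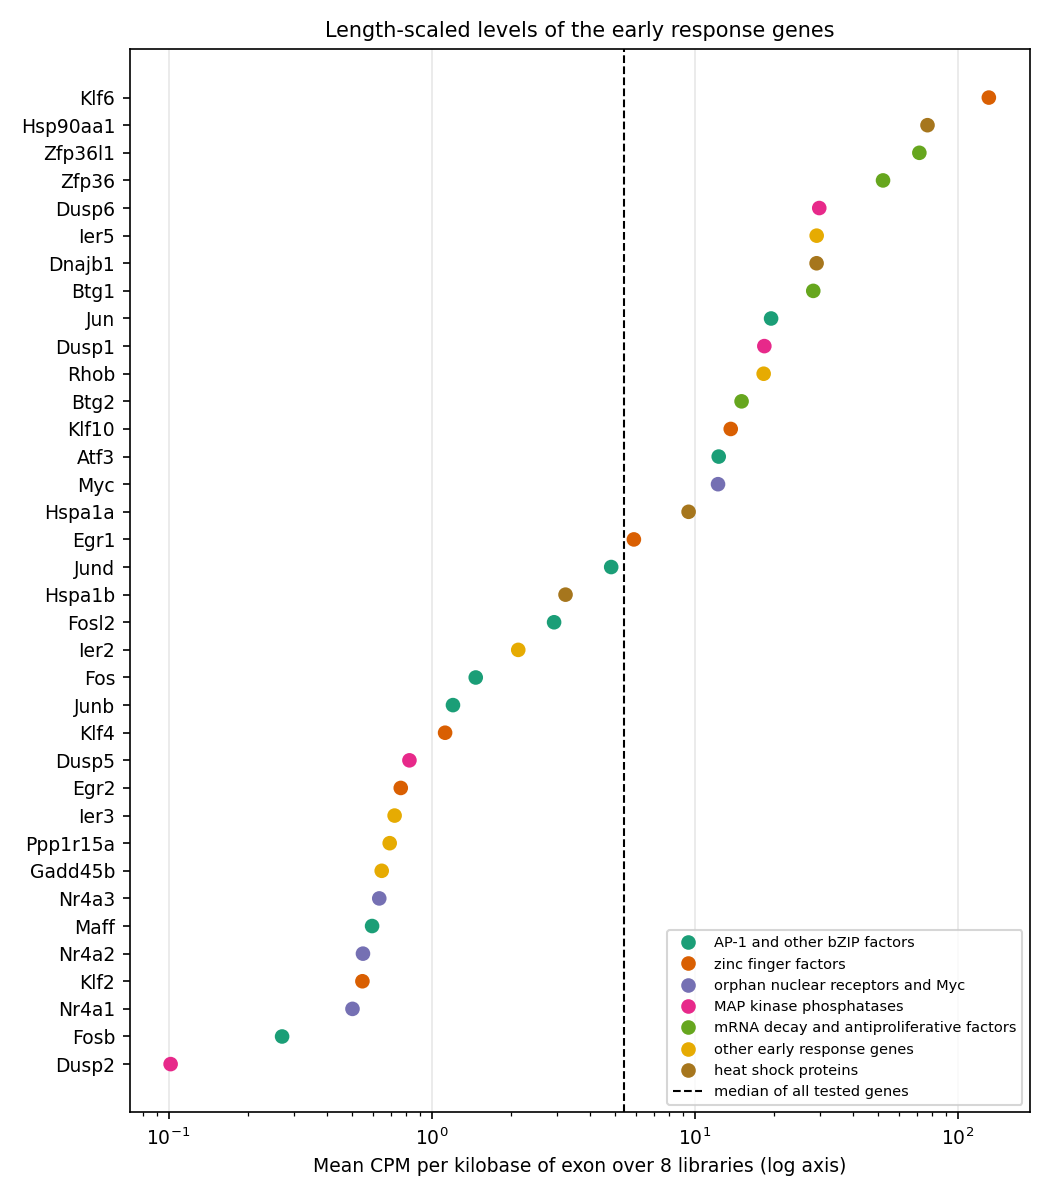
Mean CPM per kilobase of exon over the 8 libraries on a log axis, 1 point per member, coloured by role; the dashed line is the median of all tested genes, 5.38 CPM per kilobase. Klf6, Hsp90aa1, Zfp36l1 and Zfp36 lie at the right, Fos, Junb, Fosb and the Nr4a genes left of the line, and Egr3, with no count, is not drawn.

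Of the 37 members, 22 had a count in all 8 libraries and 15 were at 0 in at least 1. The filter on low counts kept 23 members for testing and left out 14, whose totals over the 8 libraries ran from 0 to 135 counts. Among the 15 members with a total of 20 to 199 counts, 10 had over 50% of their summed CPM in a single library. The same held for 54.3% of the 4760 genes of the table with such totals. None of the 9 members with at least 200 and under 2000 counts was so uneven, beside 8.23% of 6297 genes. Nor was any of the 11 members with 2000 or more, beside 0.133% of 3010 genes. The spread between libraries of 1 diet also shrank with level. Its median coefficient of variation was 150% for the 13 members with 20 to 199 counts and a count in both diets, beside 131.7% for all such genes. It was 57.5% for the 9 members with at least 200 and under 2000 counts, beside 69.0% for all genes of that range. For the 11 members with 2000 or more it was 31.8%, beside 28.9%. No library was highest throughout: HFD replicate 7 was the highest for 8 members, among them Fos, Fosb, Egr1 and Myc, HFD replicate 5 for 7 members and chow replicate 3 for 6 members. Chow replicate 1 was the lowest library for 8 of the 23 tested members, among them Egr1, Fosl2, Klf10 and Hspa1a. Chow replicate 3 was the lowest for 6 tested members and HFD replicate 6 for 5. These counts of highest and lowest libraries were not made for all genes, so they only describe the members.

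**Figure D2:**
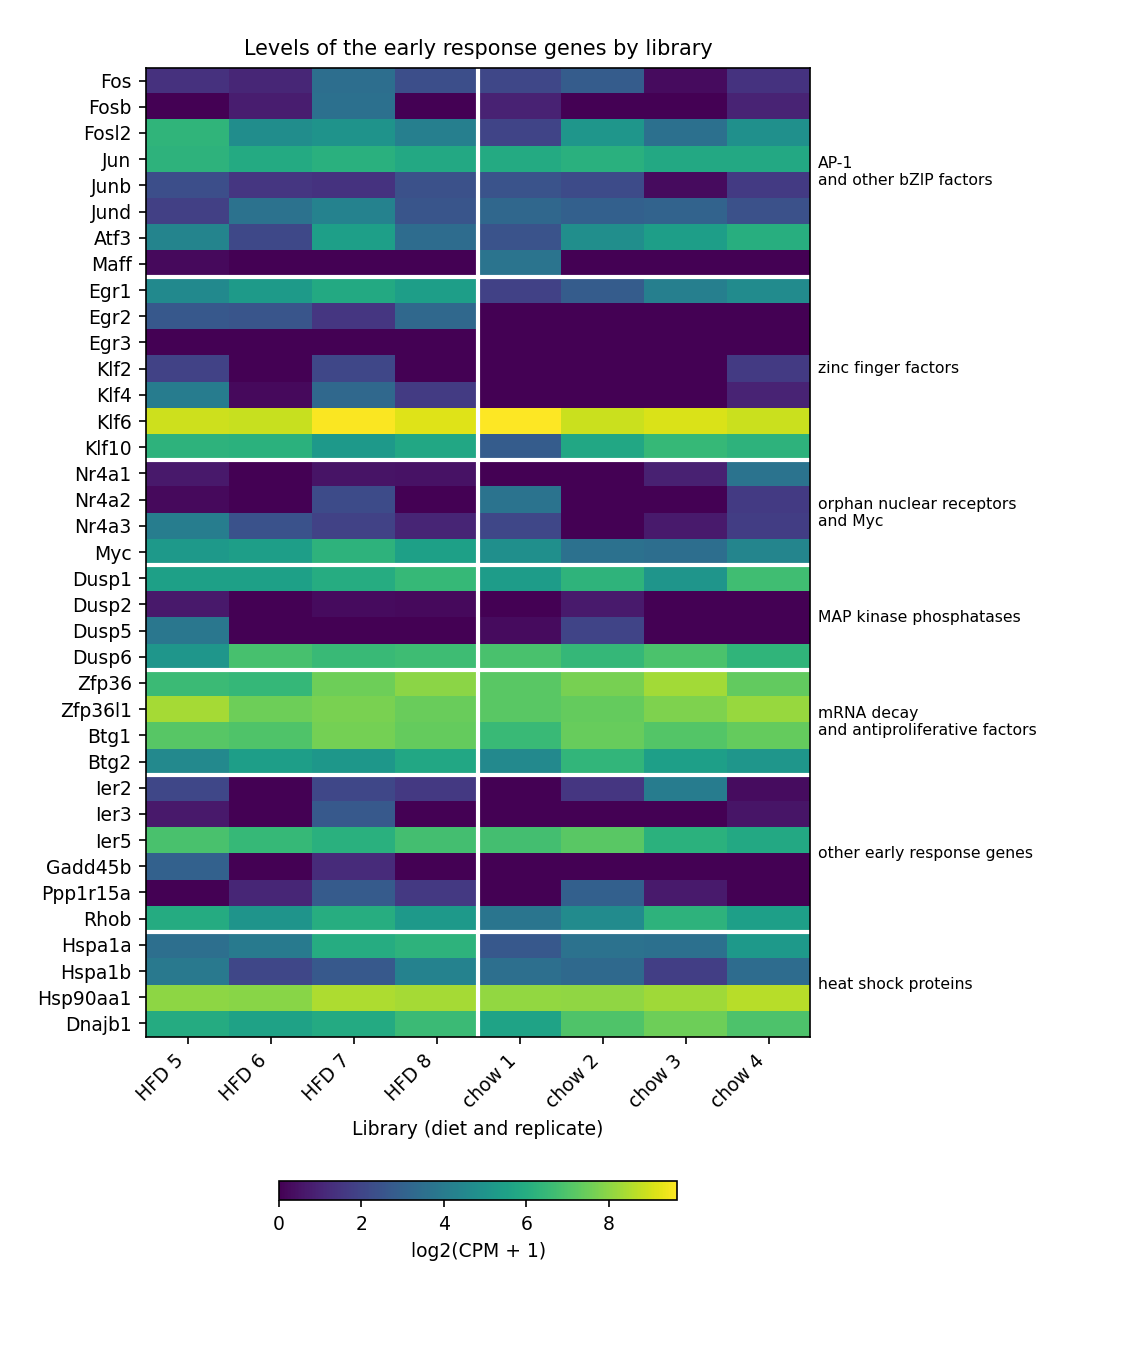
Level of the 37 members (rows, by role) in the 4 HFD libraries (left) and the 4 chow libraries (right), as log2(CPM + 1). Klf6, Hsp90aa1 and the Zfp36 and Btg genes are bright in all 8 columns, whereas Fosb, Maff, Dusp5 and Gadd45b are bright in 1 or a few columns, and Egr2 has signal only in the 4 HFD columns.

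The comparison of HFD with chow asked whether these genes differ in islet macrophages after 8 weeks of the diet. Egr1, Egr2 and Myc had higher means in HFD libraries and Dnajb1 a lower mean, and no member passed the threshold. With edgeR's quasi-likelihood test and Benjamini-Hochberg adjustment over all genes, 0 of the 23 tested members were called, as were 0.0% of the 10129 genes tested, and the lowest adjusted p of a member was 0.752. At an unadjusted p under 0.05 there were 3 members, Egr1 and Myc higher and Dnajb1 lower, against 5.35% of all tested genes (2.61% higher and 2.74% lower). These were 264 genes higher and 278 lower; with library totals in place of TMM scaling they were 337 higher and 206 lower, and 2 members, with Dnajb1 no longer among them. DESeq2 called 28 genes (0.276%) and limma-voom 1 (0.00987%), none of them a member. The log2 fold change, HFD over chow, was above 0 for 16 of the 23 tested members and below 0 for 7, with a median of 0.13, beside 48.6% of all tested genes above 0 and a median of -0.02. For 15 of the 23 it lay within 0.5 of 0, and SEs ranged from 0.209 to 1.45. Only Myc among the tested members had every HFD library above every chow library, as did 1.68% of tested genes. No member had every HFD library below every chow library, as 1.71% of tested genes did.

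**Figure D3:**
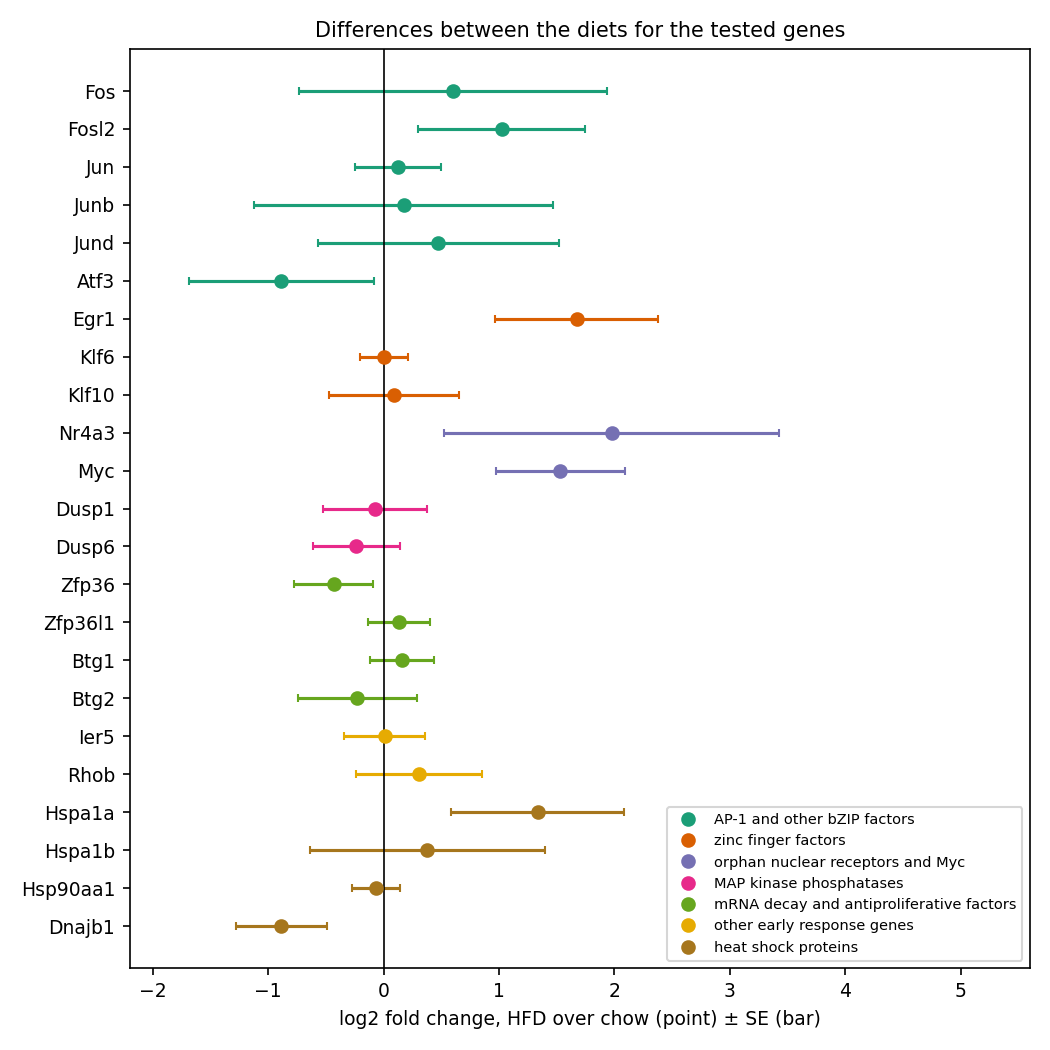
The log2 fold change, HFD over chow, of the 23 tested members (points, coloured by role) with its SE (bars), on a linear axis. Egr1, Nr4a3, Myc, Hspa1a and Fosl2 lie farthest to the right and Atf3 and Dnajb1 farthest to the left, while Klf6, Hsp90aa1 and Ier5 lie near 0.

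Of the Egr genes, zinc finger factors, Egr1 and Egr2 had lower means in chow, and Egr3 had no count in any library. Egr1 (GRCm38, chromosome 18, 34859823 to 34864984, + strand) is a growth factor-induced factor. In HFD replicates 5 to 8 it was at 23.2, 37.2, 58.0 and 42.2 CPM. Chow replicates 1 to 4 had 2.70, 6.09, 17.2 and 24.3 CPM. The lowest HFD library was just under the highest chow library, so the groups overlapped by this 1 pair. Egr1 averaged 40.1 ± 14.3 CPM in HFD and 12.6 ± 9.98 CPM in chow (SD, n = 4 each), a log2 fold change of 1.67 (SE 0.71; edgeR unadjusted p = 0.0286, adjusted p = 0.888). Over the 8 fits that left out 1 library each it ran from 1.34 to 2.20, and it was 1.05 (SE 0.89) once the stellate and fibroblast sum was added as a covariate.

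Egr2 (chromosome 10, 67535475 to 67542188, + strand), a related factor that is induced with Egr1 and is used as a marker of alternatively activated mouse macrophages, had 27, 28, 9 and 43 counts in HFD replicates 5 to 8 and 0 counts in each chow library. In CPM these were 5.36, 4.86, 1.90 and 8.64 in HFD libraries, with a mean of 5.19 ± 2.76 CPM (SD, n = 4), against chow libraries that a count of 0 allows up to 0.618 CPM on average (3 counts per library). The observed HFD mean was thus 8.40-fold this limit, which covers counting error in chow only and not the spread between libraries. All 4 HFD libraries had reads and all 4 chow libraries had none, as in 34 of the 17969 genes with a count (0.189%); the opposite pattern was seen in 9 (0.0501%). Egr2 did not pass the filter on low counts, and in an edgeR fit without that filter it was not called (unadjusted p = 0.00292, adjusted p = 0.262). It passed the filter in 6 of the fits that left out 1 library, with edgeR adjusted p-values of 0.55 to 0.96. With 0 counts in every chow library, Egr2 entered those fits through its HFD counts alone, so they are no separate test. With Myc it was 1 of 2 members whose groups did not overlap with HFD higher, of 36 members with a count, beside 1.33% of all genes with a count. Egr3, the third family member on the list, had 0 counts in all 8 libraries.

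The upstream window of Egr2 is shown because a CArG box, the element bound by SRF at immediate-early genes, lies in it. RefSeq promoter windows (build GRCm38.p6) were found for 31 of the 37 members, and the 250 bases before each start were searched on both strands. No window was found for Myc, Hsp90aa1, Ier2, Klf10, Egr1 and Egr3, so these were not searched for any motif. A CArG box was in the windows of 3 members, Dusp5, Egr2 and Zfp36, and in 1.62% of all 27025 genes with a window. The CRE, TGACGTCA, was in those of Btg2, Dusp1, Maff and Ppp1r15a, and in 1.77% of all genes. The AP-1 motif TGANTCA was in that of Zfp36l1, and in 7.82% of all genes. These are matches of letters and not measured binding. The Egr2 window covers chr10:67537439-67537558 on the + strand, from 127 to 8 bases before a RefSeq start at 67537566. It overlaps no GENCODE exon and lies within an intron of 2 longer Egr2 transcripts, and capitals mark the CArG box.
Egr2: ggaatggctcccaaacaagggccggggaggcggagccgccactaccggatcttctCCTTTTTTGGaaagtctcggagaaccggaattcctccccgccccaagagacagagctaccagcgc

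The Krüppel-like factors differed widely in level, from Klf6 at 131 to Klf2 at 0.546 CPM per kilobase. Klf6 (chromosome 13, 5861482 to 5870394), which takes part in inflammatory gene control in macrophages, was at 479, 461, 781 and 590 CPM in HFD libraries and 808, 474, 554 and 470.1 CPM in chow libraries. The groups overlapped throughout, and its log2 fold change was 0.00 (SE 0.21; edgeR adjusted p = 0.999). Klf10, a TGF-beta-induced factor, was at 36.5 to 73.9 CPM in HFD and 54.5 to 87.5 CPM in 3 chow libraries, with chow replicate 1 apart at 6.07 CPM. Klf4, a factor of monocyte and alternative macrophage differentiation, had 78, 1, 41 and 11 counts in HFD replicates 5 to 8, against 0, 0, 0 and 4 counts in chow replicates 1 to 4. Its groups overlapped through HFD replicate 6. Klf2, a factor that restrains inflammatory activation, had 29 counts over the HFD libraries and 9 over the chow libraries. Neither Klf2 nor Klf4 passed the filter.

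Myc had counts in every library, unlike the orphan nuclear receptors of the Nr4a family. Myc (chromosome 15, 61985391 to 61990374, + strand), a factor of cell growth and proliferation, was at 36.7, 41.9, 75.2 and 44.4 CPM in HFD replicates 5 to 8, against 26.7, 11.2, 10.4 and 20.3 CPM in chow replicates 1 to 4. Every HFD library was above every chow library, with HFD replicate 7 the highest. Means were 49.6 ± 17.4 CPM in HFD and 17.2 ± 7.80 CPM in chow (SD, n = 4 each), and the log2 fold change was 1.53 (SE 0.56; edgeR unadjusted p = 0.0130, adjusted p = 0.752). The log2 fold change ran from 1.26 without HFD replicate 7 to 1.83 without chow replicate 1, and was 2.25 (SE 0.85) once that same covariate was added. The smallest adjusted p of Myc over the 17 alternatives was 0.212, in DESeq2.

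Nr4a1, which is induced by tonic and acute receptor signals, had 7 counts over the HFD libraries and 54 over the chow libraries, 50 of those 54 in chow replicate 4. Nr4a2 had 53 of its 80 counts in chow replicate 1. Nr4a3 was tested, at 16.1, 4.34, 2.74 and 1.00 CPM in HFD libraries and 3.15, 0, 0.622 and 2.36 CPM in chow libraries. Its log2 fold change of 1.98 carried an SE of 1.45 (edgeR adjusted p = 0.987), and HFD replicate 5 held 53.1% of its summed CPM. Without that library the log2 fold change was 0.83 (SE 1.66), and without chow replicate 1 it was 2.60 (SE 1.74).

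**Figure D4:**
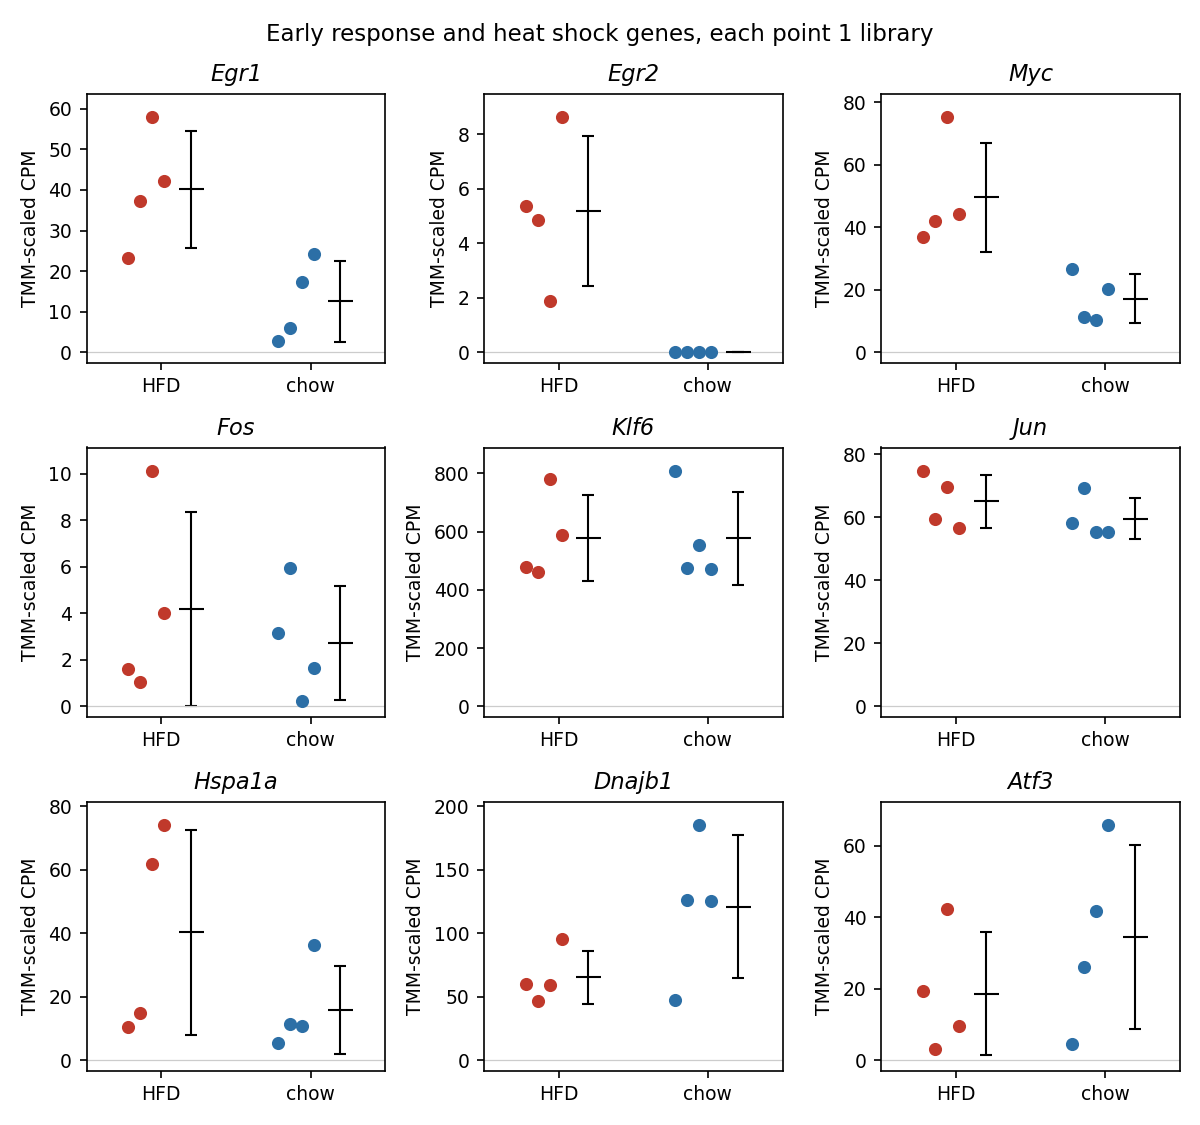
Level in TMM-scaled CPM of 9 members in the 4 HFD libraries (red, left) and the 4 chow libraries (blue, right), each point 1 library, with the mean and SD beside them (n = 4 each). All HFD points are above all chow points for Myc and Egr2, Egr1 overlaps by 1 pair, and the other 6 panels overlap more widely.

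Of the 8 AP-1 and related bZIP members, 6 were tested, 5 of them higher and 1 lower in HFD, and 0 were called. Fos (chromosome 12, 85473890 to 85477273), the prototype immediate-early gene, was at 1.59, 1.04, 10.1 and 4.02 CPM in HFD libraries and 3.15, 5.93, 0.207 and 1.65 CPM in chow libraries. These are 6 to 48 counts per HFD library and 1 to 38 per chow library, and the groups overlapped. Its log2 fold change was 0.60 with an SE of 1.33, and ran from -0.31 without HFD replicate 7 to 1.32 without chow replicate 2. Jun was steady at 74.7, 59.4, 69.5 and 56.6 CPM in HFD libraries and 58.2, 69.2, 55.4 and 55.5 CPM in chow libraries, with a log2 fold change of 0.13 (SE 0.37; edgeR adjusted p = 0.987). Its coefficient of variation within a diet, 12.01%, was the lowest of any member with 2000 counts or more.

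Junb, an AP-1 subunit with its own targets, was at 1.69 to 4.22 CPM in HFD and 0.207 to 4.49 CPM in chow. Jund, the AP-1 subunit usually present in resting cells, was at 2.58 to 18.5 CPM in HFD and 4.25 to 8.31 CPM in chow. Fosb had 52 of its 64 counts in HFD replicate 7, the library with the highest Fos, and Maff, a small Maf protein gene, had 54 of its 55 counts in chow replicate 1. Fosl2, an AP-1 subunit, was at 79.3, 25.4, 30.1 and 17.1 CPM in HFD libraries and 2.92, 32.8, 10.99 and 27.8 CPM in chow libraries. Its log2 fold change was 1.02 (SE 0.73; edgeR adjusted p = 0.987), and 0.37 (SE 0.83) without HFD replicate 5. With the summed stellate and fibroblast genes as a covariate it was -0.92 (SE 0.96), and HFD replicate 5 had both the highest Fosl2 and the highest stellate and fibroblast sum.

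Atf3, a stress-induced repressor of inflammatory genes, was at 19.5, 3.30, 42.4 and 9.64 CPM in HFD libraries and 4.49, 26.1, 41.7 and 65.8 CPM in chow libraries. Its mean was lower in HFD, 18.7 ± 17.1 CPM against 34.5 ± 25.9 CPM in chow (SD, n = 4 each), with a log2 fold change of -0.89 (SE 0.80; edgeR adjusted p = 0.987) and overlapping groups. The log2 fold change of Atf3 ran from -1.68 without HFD replicate 7 to -0.38 without chow replicate 4, and was -2.30 (SE 1.11) with the covariate. The highest Atf3 values, in HFD replicate 7 and chow replicates 3 and 4, were in the 3 libraries with the highest acinar sums (1558, 1447 and 3200 CPM). The part of acinar RNA or of the preparation in Atf3 was not tested. Cebpd, the gene found by its ID, is a bZIP factor of acute inflammation. It had 244 of its 329 counts in chow replicate 3 and a log2 fold change of -2.35 (SE 1.51; edgeR adjusted p = 0.987), and 5 of its 8 values were fractional before rounding.

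The mRNA decay and antiproliferative members all had counts in every library. Zfp36 (tristetraprolin), which binds AU-rich elements and speeds the decay of cytokine mRNAs, was at 94.7, 84.9, 185 and 251 CPM in HFD libraries and 145, 204, 320 and 162 CPM in chow libraries. HFD replicates 5 and 6 were below all other libraries, but HFD replicate 8 was the highest but 1 of all 8, and the log2 fold change was -0.43 (SE 0.34; edgeR adjusted p = 0.987). Zfp36l1 was at 174 to 327 CPM in HFD and 145 to 286 CPM in chow. Btg1, an antiproliferative factor that recruits the deadenylase complex, was at 126 to 200 CPM in HFD and 93.5 to 170 CPM in chow. Its relative Btg2 was at 22.6 to 54.8 CPM in HFD and 22.2 to 80.6 CPM in chow. The log2 fold changes of the 4 ran from -0.43 to 0.16.

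Of the MAP kinase phosphatases, Dusp1, the nuclear phosphatase that ends p38 and JNK signals, was at 44.1, 43.4, 62.8 and 87.2 CPM in HFD libraries and 39.8, 76.2, 31.9 and 102 CPM in chow libraries. The diets overlapped in full (log2 fold change -0.08, SE 0.45; edgeR adjusted p = 0.988). Dusp6, the cytoplasmic ERK phosphatase, was at 116, 93.2 and 101 CPM in HFD replicates 6 to 8 and 32.4 CPM in HFD replicate 5, against 118, 86.0, 121 and 79.3 CPM in chow libraries. HFD replicate 5 was thus below the other 7 libraries, and without it the log2 fold change was 0.04 instead of -0.24. Dusp5, the nuclear ERK phosphatase, had 66 of its 86 counts in that same library, and Dusp2 had 9 counts in all.

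The remaining early response genes included Ier5, a regulator of heat shock factor activity, at 69.5 to 117 CPM in HFD and 56.6 to 144 CPM in chow (log2 fold change 0.01, SE 0.35). Rhob, an endosomal small GTPase induced by stress, was at 60.0, 31.3, 63.6 and 35.5 CPM in HFD libraries and 12.6, 24.0, 74.0 and 43.0 CPM in chow libraries (log2 fold change 0.31, SE 0.55). Ier2, Ier3, Gadd45b and Ppp1r15a did not pass the filter. Gadd45b, a stress sensor of the MAP kinase pathway, had 35 and 6 counts in HFD replicates 5 and 7 and 0 in the other 6 libraries. Ppp1r15a, which reverses the block on translation after stress, had 44 counts over the HFD libraries and 46 over the chow libraries. Ier2 had 75 of its 129 counts in chow replicate 3, and Ier3 had 26 of its 31 in HFD replicate 7.

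All 4 heat shock members were tested, 2 of them higher and 2 lower in HFD, and 0 were called. Dnajb1 (chromosome 8, 83608193 to 83612653, + strand), the HSP40 co-chaperone of the HSP70 proteins, was at 60.2, 46.7, 59.6 and 95.4 CPM in HFD libraries, against 47.6, 126, 185 and 125 CPM in chow libraries. All 4 HFD libraries were below 3 of the chow libraries, and chow replicate 1 was as low as the lowest HFD libraries. Means were 65.5 ± 20.9 CPM in HFD and 121 ± 56.4 CPM in chow (SD, n = 4 each), a log2 fold change of -0.89 (SE 0.39; edgeR unadjusted p = 0.0359, adjusted p = 0.893) that ran from -1.16 without chow replicate 1 to -0.61 without chow replicate 3. Hsp90aa1, the inducible cytosolic HSP90, was level at 257, 247, 350.3 and 327 CPM in HFD libraries and 272, 262, 309 and 392.2 CPM in chow libraries (log2 fold change -0.06, SE 0.21).

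Hspa1a, an inducible HSP70 gene and a sensitive marker of heat and dissociation stress, had a higher mean in HFD, at 10.5, 14.9, 61.8 and 74.1 CPM, against 5.39, 11.4, 10.8 and 36.3 CPM in chow libraries. Only HFD replicates 7 and 8 were above chow replicate 4, and the log2 fold change was 1.34 (SE 0.75; edgeR unadjusted p = 0.0901, adjusted p = 0.987), from 0.87 without HFD replicate 8 to 2.12 without chow replicate 4. Its neighbour Hspa1b was at 14.1, 3.13, 5.48 and 18.3 CPM in HFD libraries and 10.6, 8.74, 2.49 and 9.68 CPM in chow libraries (log2 fold change 0.38, SE 1.02). Their ratio was most uneven in HFD replicate 7, with 293 counts of Hspa1a and 26 of Hspa1b. The genes lie on the - strand of chromosome 17 and are close copies: 82.3% of the 50-base windows of the Hspa1a reading frame occur in that of Hspa1b, so their counts are uncertain. Their upstream windows are shown because they are copies too, with 3 differences in the 250 bases before the start. Both were read on the - strand, from 174 to 25 bases before the start, at chr17:34972181-34972330 for Hspa1a and chr17:34959263-34959412 for Hspa1b. Capitals mark a match to the heat shock motif GAANNTTC. It was in the windows of 4 of the 31 members searched (Fosl2, Hspa1a, Hspa1b and Jun) and of 7.73% of all genes with a window. Hsp90aa1 had no window and was not searched.
Hspa1a: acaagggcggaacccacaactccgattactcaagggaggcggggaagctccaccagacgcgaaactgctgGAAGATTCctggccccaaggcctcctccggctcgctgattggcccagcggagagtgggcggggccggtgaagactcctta
Hspa1b: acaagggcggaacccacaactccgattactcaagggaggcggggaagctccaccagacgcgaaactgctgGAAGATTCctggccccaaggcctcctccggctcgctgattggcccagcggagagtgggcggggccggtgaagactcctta

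Whether members vary together between libraries was examined for 4 pairs, on log2(CPM + 1) over the 8 libraries, with an exact two-sided permutation test of the pairings. Fos and Jun had a Pearson's r of 0.48 (exact p = 0.228, adjusted over the 4 pairs 0.457) and a Spearman's rho of 0.40 (exact p = 0.327, adjusted 0.654). Fos and Dusp1 had an r of 0.52 (exact p = 0.187, adjusted 0.457) and a rho of 0.55 (exact p = 0.171, adjusted 0.654). For Fos and Egr1, r was 0.03 (exact p = 0.937, adjusted 0.937) and rho 0.24 (exact p = 0.582, adjusted 0.776). For Hspa1a and Dnajb1, r was 0.12 (exact p = 0.781, adjusted 0.937) and rho 0.05 (exact p = 0.935, adjusted 0.935). Without the 2 libraries farthest from the median of the first gene, r was 0.10 for Fos and Jun, 0.36 for Fos and Dusp1, -0.51 for Fos and Egr1 and 0.38 for Hspa1a and Dnajb1. None of the 4 relations passed the threshold, and they were not computed within a diet, which has 4 libraries.

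Other genes of the same pathways were also not called. Of 28 kinases and factors upstream of the immediate-early genes, all were tested, 12 were higher and 16 lower in HFD, 0 were called, and the median log2 fold change was -0.05. The smallest p-values were those of Atf1, a CREB family factor, at 230 ± 55.8 CPM in HFD and 368 ± 79.6 CPM in chow (log2 fold change -0.68, SE 0.23; edgeR adjusted p = 0.752), and of its bZIP relative Atf2, at 329 ± 36.5 CPM in HFD and 218 ± 75.3 CPM in chow (0.59, SE 0.25; adjusted p = 0.874). Next came Rps6ka1, an ERK-activated kinase gene, with 1.08 (SE 0.47), and Mapk9, which encodes JNK2, with -0.85 (SE 0.38).

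Of 47 other immediate-early and AP-1 genes, 32 were tested, 12 higher and 20 lower, with 0 called and a median log2 fold change of -0.15. Zfp36l2, the third member of the Zfp36 family on the lists, was at 242, 178, 160 and 203 CPM in HFD libraries and 244, 248, 377 and 359 CPM in chow libraries. Every HFD library was below every chow library, by a narrow gap between HFD replicate 5 and chow replicate 1 (log2 fold change -0.65, SE 0.23; edgeR adjusted p = 0.752). Id2, an inhibitor of bHLH factors, was at 29.4 ± 19.6 CPM in HFD and 7.84 ± 3.04 CPM in chow (1.91, SE 0.79; edgeR adjusted p = 0.861). For Errfi1, a feedback inhibitor of EGF receptors, the log2 fold change was -0.78 (SE 0.41). For Tnfaip3, which encodes the NF-kB inhibitor A20, it was 1.05 (SE 0.62). Of 22 other heat shock and chaperone genes, 19 were tested, 7 higher and 12 lower, with 0 called and a median of -0.10. Hspa8, the constitutive HSP70, was at 594 ± 33.0 CPM in HFD and 528 ± 102 CPM in chow, and the log2 fold changes of the co-chaperone genes St13 and Stip1 were 0.64 (SE 0.37) and -0.55 (SE 0.73).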

How the data were processed

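The deposited table holds expected counts per Ensembl gene, 1 column per library and not scaled between libraries. Reads were aligned with STAR to GRCm38 after FastQC and Trim Galore, per the submitters' processing notes. The sources used here name neither the counting program nor its strand setting nor any version, so reads of a gene and of an antisense partner (such as Jun and Junos, or Junb and Prdx2) cannot be told apart. The labels' protocols give 500 pg of RNA amplified with the Ovation RNA-Seq System V2. Between 939 and 1115 values per library were fractional, and all were rounded. Symbols, coordinates and exon lengths came from GENCODE M21, which held 48058 of the 48440 IDs. All 28 pairs of libraries differed by more than sampling noise, with a chi-square of at least 36.3 per degree of freedom. Nothing says that the pools of mice were handled on separate days, so p-values measure the spread between these libraries.

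Genes were tested with edgeR 4.0.16 (TMM, filterByExpr, robust quasi-likelihood fit, diet as the only term, two-sided, Benjamini-Hochberg over 10129 genes, threshold 0.05). Alternatives were limma-voom (limma 3.58.1), DESeq2 1.42.0, other scalings and filters, a stellate and fibroblast covariate, and each library left out in turn, in R 4.3.3. Correlations used a pseudocount of 1 CPM. All members are named; from each pathway list the 4 genes with the smallest p are named, except for results not reported here. The members and lists were chosen with earlier results of these data known.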

Additional observations from a re-analysis of the deposited data

Results flagged for a closer look

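In 70 sets of 4 libraries (a member in 1 diet, with differing values), a library was set apart from the other 3 by a gap above Dixon's 95% critical value, as a share of the range, in 14. Chance flags about 1 in 20 sets of continuous values, but that rate does not hold here: in 7 of the 14 the other 3 libraries were at 0, so that the gap filled the range by construction. All 14 were high values of members that did not pass the filter on low counts. In HFD these were Fosb with 10.96 CPM in replicate 7 (0 to 0.695 in the others), Nr4a2 with 3.58 and Ier3 with 5.48 CPM in the same replicate, Dusp5 with 13.1 CPM in replicate 5 (0 in the others) and Maff with 0.199 CPM, a single count, also in replicate 5. In chow they were Maff with 12.1 CPM in replicate 1, Dusp5 with 2.97, Dusp2 with 0.624 and Ppp1r15a with 6.71 CPM in replicate 2, and Ier2 with 15.6 CPM in replicate 3. Chow replicate 4 held the rest, with 11.8 CPM for Nr4a1, 2.12 for Klf2, 0.944 for Klf4 and 0.472 for Ier3. Most of these values rest on few counts, from 1 for Maff in HFD to 75 for Ier2 in chow.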

How the results depend on the processing

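Each of the 17 alternatives called 0 members. Over all genes, edgeR called 45 of 17969 without a filter, DESeq2 called 28 and limma-voom 1, and the fits that left out 1 library each called 0 to 11 (11 without HFD replicate 8). The median log2 fold change of the members ran from 0.06 to 0.25 over those fits. Of the 23 tested members, 8 kept their sign under every alternative in which they were tested, Jun, Atf3, Egr1, Nr4a3, Myc, Zfp36, Hspa1a and Dnajb1 (16 alternatives for Nr4a3, 17 for the others), and the lowest adjusted p of any member was 0.212. With the stellate and fibroblast covariate the sign turned for Fosl2 (-0.92), Klf10 (-1.05), Dusp1 (0.15), Dusp6 (0.11), Zfp36l1 (-0.46), Btg1 (-0.018) and Rhob (-0.69). The cause was not tested, and the covariate itself differed with diet. Klf6 was at -0.0031 with RLE scaling and in DESeq2, and Hsp90aa1 at 0.010 with library totals. Leaving out 1 library turned the sign for Fos (-0.31 to 1.32), Junb (-0.21 to 0.56), Jund (-0.094 to 0.79), Klf6 (-0.18 to 0.21), Klf10 (-0.29 to 0.40), Dusp1 (-0.32 to 0.26), Dusp6 (-0.42 to 0.039), Zfp36l1 (-0.11 to 0.33), Btg2 (-0.46 to 0.23), Ier5 (-0.18 to 0.28), Hspa1b (-0.059 to 0.67) and Hsp90aa1 (-0.16 to 0.062). The correlations ran from 0.32 to 0.79 for Fos and Jun, 0.27 to 0.77 for Fos and Dusp1, -0.38 to 0.25 for Fos and Egr1 and -0.14 to 0.36 for Hspa1a and Dnajb1. No paired analysis was possible because the diets share no replicate numbers. Amplification from 500 pg, with no molecular identifiers stated, and totals of at most 135 counts for the 14 untested members limit what can be said of them.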
